A study of Mus musculus with 4 samples.

Results

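The 66 genes described here encode the machinery that builds autophagosomes, the cathepsins, the subunits of the vacuolar proton pump (V-ATPase) and a few lysosomal membrane proteins and regulators, out of 36918 gene names on the array. They were chosen by name alone. Taken were genes whose symbols begin with Atg and a number, or with Atp6v0 or Atp6v1. To these came the cathepsins Ctsa, Ctsb, Ctsc, Ctsd, Ctsf, Ctsg, Ctsh, Ctsk, Ctsl, Ctss and Ctsz, other cathepsin names being outside the rule. The rest were 15 further named genes (the LC3 and GABARAP genes, Becn1, Ulk1, Ulk2, Wipi1, Wipi2, Lamp1, Lamp2, Mcoln1, Tfeb and Tfe3). The 66 fall into 28 autophagy genes, 11 cathepsins, 22 V-ATPase genes and 5 lysosomal membrane and TFEB family genes. Expression was measured in mouse pancreatic cancer cells of strain C57BL/6, named K5 and K6. Each gave 1 sample under the DMSO control and 1 sample after halofuginone at 100 nM for 24 hours, and each sample was run on 1 Agilent 1-colour array. The labels do not say how K5 and K6 differ or what they derive from, and below each is called a line. The question of the design is what halofuginone, an inhibitor of prolyl-tRNA synthetase, changes in each line relative to its control.

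Autophagy encloses cell contents in a double membrane and delivers them to lysosomes. The ULK kinases start the process, a lipid kinase complex around BECN1 marks the membrane, and a conjugation system attaches proteins of the ATG8 family (LC3 and GABARAP) to it. The lysosome is acidified by the V-ATPase, made of a membrane sector, V0, and a cytosolic sector, V1, and its cathepsins are proteases that mostly need the low pH. The transcription factors TFEB and TFE3 bind E-boxes in promoters of many lysosomal and autophagy genes, and pancreatic cancer is known for its reliance on this pathway.

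Because E-boxes are the textbook feature of lysosomal promoters, the RefSeq promoter windows (GRCm38.p6, 250 bases before to 50 after each start) were searched on both strands for the core CACGTG, which reads the same on either strand. The table held 63 windows of 54 of the 66 members. The core was in 14 windows (22.2%), against 7.15% of all 32851 windows, and these belonged to 14 genes (25.9% of the 54, against 8.09% of all 27025 genes in the table). All 14 were tested, 28.6% of the 49 tested members with a window, against 11.2% of the 11047 tested genes with a window. They were Atg3, Atg5, Atg7 and Atg14, Ctsa, Ctsd, Ctsf and Ctsl, Atp6v0b, Atp6v0d1, Atp6v0e and Atp6v1a, Lamp1 and Mcoln1. The amino acid response core TGATGNAA was in the windows of Atp6v0d1, Ctsg and Ctsl (4.76% of the members' windows, against 3.97% of all). A match describes the letters and does not show that a factor binds. The stretches below are the 120 bases up to the start, 5′ to 3′ on the gene's strand. They are shown for the members past the threshold that the table held (Ulk2, Ctsf, Atp6v0a4), for the member nearest outside it in the same 3 groups (Atg3, Ctsa, Atp6v0b), and for Lamp1, whose window held 4 cores. Capitals mark the core.
Ulk2: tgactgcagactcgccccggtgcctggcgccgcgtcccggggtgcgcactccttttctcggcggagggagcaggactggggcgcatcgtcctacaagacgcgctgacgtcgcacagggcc
Ctsf: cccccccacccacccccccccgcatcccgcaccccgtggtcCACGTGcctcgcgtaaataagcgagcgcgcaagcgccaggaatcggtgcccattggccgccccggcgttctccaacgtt
Atp6v0a4: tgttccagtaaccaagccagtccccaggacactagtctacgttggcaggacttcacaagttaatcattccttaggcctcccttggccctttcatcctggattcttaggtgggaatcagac
Atg3: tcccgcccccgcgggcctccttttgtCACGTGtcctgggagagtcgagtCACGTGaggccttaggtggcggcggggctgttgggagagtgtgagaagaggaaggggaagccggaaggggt
Ctsa: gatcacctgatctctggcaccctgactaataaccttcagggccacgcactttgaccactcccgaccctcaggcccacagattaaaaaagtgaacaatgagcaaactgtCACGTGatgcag
Atp6v0b: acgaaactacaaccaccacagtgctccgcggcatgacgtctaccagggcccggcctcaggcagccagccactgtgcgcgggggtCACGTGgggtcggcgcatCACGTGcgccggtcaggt
Lamp1: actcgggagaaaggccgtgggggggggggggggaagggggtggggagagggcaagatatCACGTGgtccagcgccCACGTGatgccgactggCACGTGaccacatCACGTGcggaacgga
Their positions are chr11:61855093-61855212 (minus strand) for Ulk2, chr19:4855045-4855164 (plus) for Ctsf, chr6:38124587-38124706 (minus) for Atp6v0a4, chr16:45158709-45158828 (plus) for Atg3, chr2:164833653-164833772 (plus) for Ctsa, chr4:117887330-117887449 (minus) for Atp6v0b and chr8:13159041-13159160 (plus) for Lamp1. Ulk2 and Atp6v0a4 have no core in these stretches, and Ctsf and Ctsa have 1 (Ctsa has 2 in its whole window). Atg3 and Atp6v0b have 2, and Lamp1 has 4. The printed genes did not share a direction after halofuginone (values below).

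A level below is the log2 processed signal of a gene's brightest probe less the 75th percentile of that array, and changes are halofuginone minus control on that log2 scale. Levels of different genes come from different probes and cannot be ranked against each other. Of the 66 members, 60 were tested, having a probe clearly above background on 2 arrays or more, and 55 of them were above background on all 4. The 6 others were Ctsg, Ctsk, Ctss, Atp6v0d2, Atp6v1b1 and Atp6v1g3, of which Ctsg and Ctsk were above background on the halofuginone K6 array alone and the rest on none. Halofuginone was compared with control by limma with the line as a block. Benjamini-Hochberg adjustment ran over the 19093 tested genes, and the threshold was 0.05. Whether the samples were grown as independent cultures is not stated. The p-values set the mean change against how far the changes in K5 and K6 differ, with a variance partly shared among genes. That difference may be technical or may lie between the lines. A member that changed by unlike amounts in K5 and K6 therefore passed less easily. In such samples, fewer cells with a transcript and less transcript per cell cannot be told apart.

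After halofuginone, 1 of the 60 tested members rose (Atp6v0a4) and 3 fell (Ulk2, Ctsf and Ctsh). Of all tested genes, 3.88% rose and 5.08% fell (8.96% either way), so the members' count is near the background. At an unadjusted limma p under 0.05, 11 of the 60 members were higher and 10 lower. Of all 19093 tested genes, 3280 were higher and 3226 lower at that p, a similar share. The median cathepsin changed by -0.73 in K5 and -0.67 in K6. The medians were 0.20 and 0.71 for the V-ATPase genes, -0.22 and -0.07 for the autophagy genes, and 0.46 and 0.44 for the lysosomal membrane and TFEB family genes. Over all tested genes the medians were -0.03 and 0.04. The sign of each of these group medians was the same in both lines and under every alternative processing tried. Some of these, such as the variance model and the block, do not alter the changes and could not move a median. The autophagy median in K6, -0.07, lies so close to 0 that its sign says little. The number of members past the threshold was not stable: over 12 alternatives it ranged from 0 to 20. Ctsh and Ctsf passed in 8 of these, Ulk2 in 7 and Atp6v0a4 in 4 of the 11 that tested it, always in the direction reported.

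**Figure D1:**
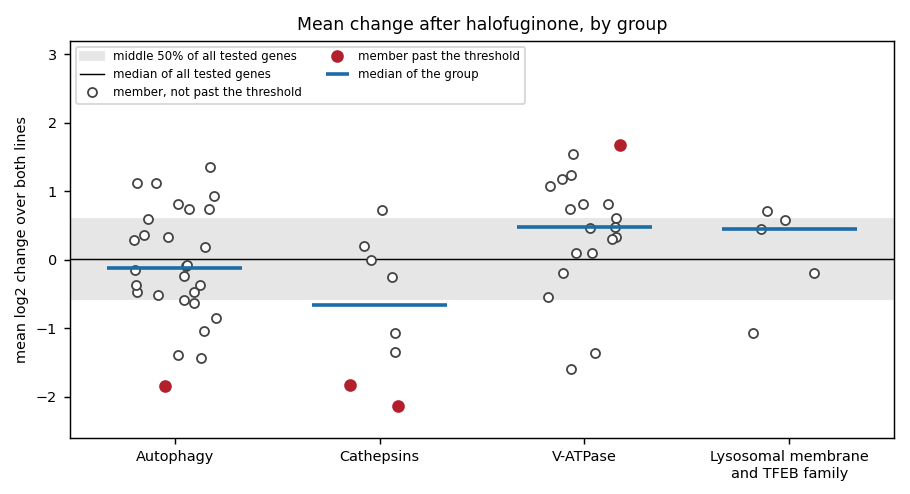
Mean log2 change over both lines (vertical axis, halofuginone minus control) of each tested member, by group (horizontal axis, points spread sideways for legibility). Filled points are the 4 members past the threshold, blue bars the group medians (-0.12, -0.66, 0.47 and 0.45 from left to right), the black line the median of all tested genes (0.01) and the grey band their middle 50% (-0.57 to 0.60). The cathepsin median lies below the band and the other 3 inside it.

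**Figure D2:**
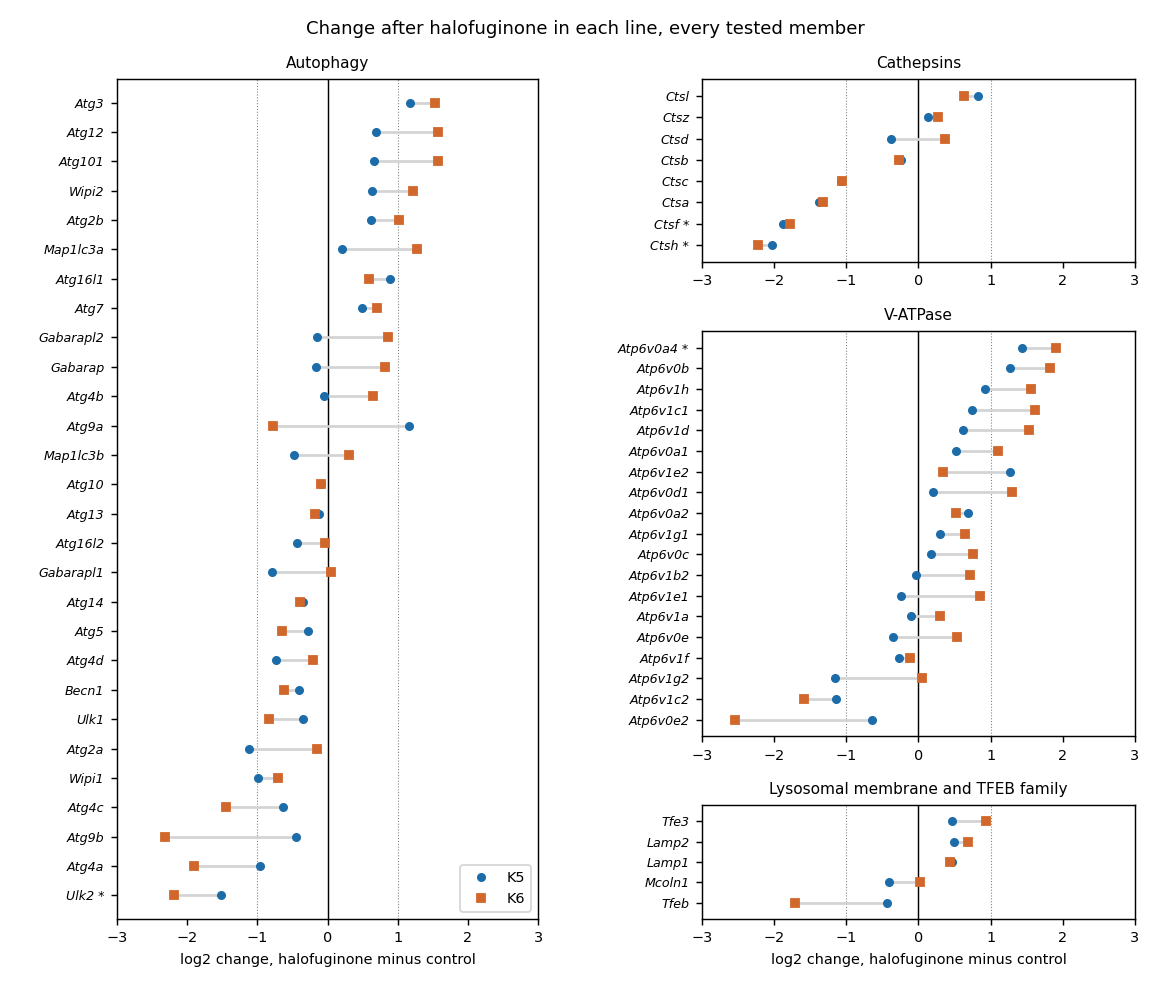
Log2 change (horizontal axis) of every tested member in K5 (circles) and K6 (squares), 1 array per condition, with grey bars joining the lines and dotted lines at a 2-fold change. Asterisks mark members past the threshold. The circle and the square of each cathepsin except Ctsd nearly coincide, whereas among the V-ATPase genes the square lies to the right of the circle in 15 of 19.

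Cathepsin genes were lower more often than higher. Of 8 tested, 2 fell (Ctsh and Ctsf), none rose and 6 did not pass the test. In both lines 4 of the 8 were at least 2-fold lower (Ctsa, Ctsc, Ctsf and Ctsh), against 9.62% of all tested genes, and none was at least 2-fold higher. Among all 8, both halofuginone arrays lay below both control arrays in 4 (28.6% of all tested genes) and above both in 2 (30%). The 4 below were the same genes, which a 2-fold fall in both lines makes likely.

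Ctsh encodes cathepsin H, a cysteine protease that trims peptides from the amino end. Its level was 4.23 in control K5 and 3.8 in control K6, and 2.19 and 1.57 after halofuginone. It fell 4.39-fold, by 2.13 on the log2 scale (SE 0.26, limma adjusted p = 0.0399, lower in both lines). Its 3 probes above background gave changes from -2.13 to -1.90. The probe lies at chr9:89970828-89970887 on mm9. Ctsf encodes cathepsin F, another cysteine protease. It read -0.20 and -1.45 in control K5 and K6, and -2.08 and -3.24 after halofuginone, so the treated array was lower within each line. Ctsf fell 3.56-fold, by 1.83 (SE 0.256, limma adjusted p = 0.0439), measured by 1 probe at chr19:4860454-4860513 on mm9.

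Ctsa, the serine carboxypeptidase that also protects lysosomal galactosidase and neuraminidase, read 6.66 and 7.0 in control K5 and K6 and 5.28 and 5.67 after halofuginone. The change of -1.35 (SE 0.255) missed the threshold (limma adjusted p = 0.056) although it was 2.60-fold in K5 and 2.51-fold in K6. Ctsc, the dipeptidyl peptidase that activates serine proteases of leukocyte granules, read 2.90 and 2.43 in the controls and 1.83 and 1.37 after halofuginone, a change of -1.06 with an adjusted p of 0.0778. The treated arrays of both genes lay below both controls. The remaining tested cathepsins moved less. Ctsl, a major lysosomal endopeptidase, read 5.89 and 6.43 in control K5 and K6 and 6.71 and 7.06 after halofuginone, a change of 0.73 (SE 0.259, limma adjusted p = 0.145) with both treated arrays above both controls. Ctsb, the other abundant cysteine protease of most tissues, read 6.23 and 5.96 in the controls and 5.99 and 5.69 after halofuginone. Ctsd, the aspartic protease, read 4.98 and 5.83 in the controls and 4.60 and 6.19 after halofuginone. Its change was -0.38 in K5 and 0.36 in K6, with a mean of -0.01. Ctsz, a carboxypeptidase, changed by 0.13 in K5 and 0.27 in K6.

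**Figure D3:**
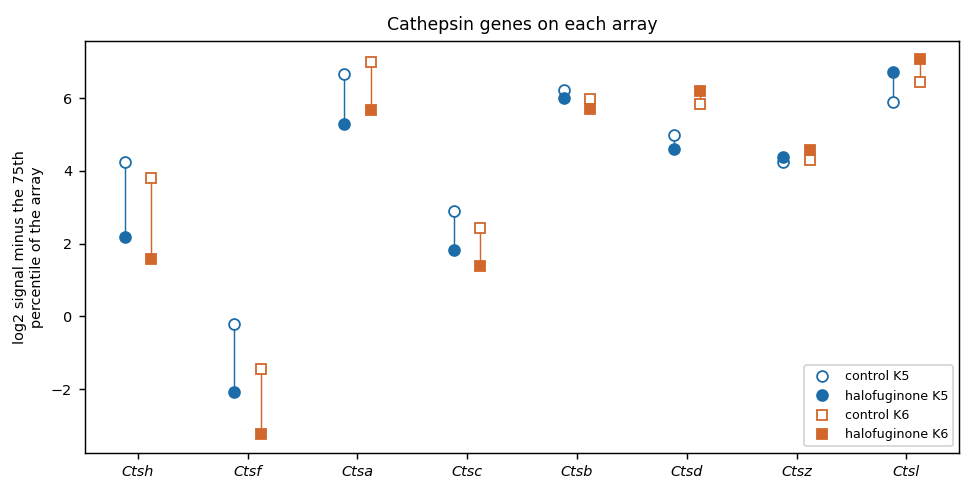
Levels of the 8 tested cathepsin genes (vertical axis, log2 signal minus the array's 75th percentile) on each array, with open marks for control, filled marks for halofuginone, circles for K5 and squares for K6. In Ctsh, Ctsf, Ctsa and Ctsc the filled mark lies at least 1.06 below the open mark of the same line, and in Ctsl and Ctsz it lies above it.

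Several cathepsins are most abundant in macrophages, so markers of other cells were read beside them. Of 9 macrophage and leukocyte markers on the array, 6 were tested (Ptprc, Csf1r, Cd68, Itgam, Cd14 and Fcer1g), each above background on all 4 arrays. The other 3 (Adgre1, Lyz2 and Tyrobp) were above background on no array. Cd14 and Cd68 fell, by 3.38 and 1.79 on the log2 scale (limma adjusted p = 0.0399 and 0.0441), and the other 4 tested did not pass, with mean changes of -1.15 for Csf1r, -0.29 for Itgam, -0.19 for Fcer1g and 0.61 for Ptprc. The summed level of the list went from 4.91 to 3.74 in K5 and from 4.80 to 3.30 in K6, while that of Cd14 alone went from 4.26 to 1.53 in K5. CD68 is itself a lysosomal membrane protein. Their part in the cathepsin values was not tested. All 8 epithelial and ductal markers (among them Krt8, Krt18, Krt19 and Cdh1) were above background on all 4 arrays, and none passed the test (limma, 0 also at an unadjusted p under 0.05). Of the fibroblast markers 3 of 7 were tested and none passed, of the endothelial 1 of 5 (Kdr rose), of the acinar 1 of 6 (Cela1 fell) and of the islet markers 1 of 5, which did not pass.

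V-ATPase genes were higher more often than lower after halofuginone, by more in K6 than in K5. Of 19 tested, 1 rose (Atp6v0a4), none fell and 18 did not pass the test. In both lines 11 were higher (38.7% of all tested genes were) and 3 lower (38% of all), and the 5 with opposite signs were all lower in K5 and higher in K6. Of all 19093 tested genes, 4448 had opposite signs, 2532 of them lower in K5 and higher in K6. In both lines 2 of the 19 were at least 2-fold higher (8.59% of all tested genes) and 1 at least 2-fold lower (9.62%). In single lines, at least 2-fold higher were 3 in K5 (14.1% of all tested genes) and 7 in K6 (16.4%), and at least 2-fold lower were 2 in K5 (14.9%) and 2 in K6 (16.4%). The change in K6 exceeded that in K5 in 15 of 19, against 53.3% of all tested genes. Both treated arrays lay above both controls in 5 of 19 (30% of all tested genes). The count of 15 was 14 to 16 of 19 under the alternatives that kept all 19 and 14 of 15 under the stricter filter on dim probes. With 1 array per line and condition this difference between lines has no test. Atp6v1e2 was tested only through its 2 halofuginone arrays, the controls being below background, so the filter favoured a higher value. It passed at -4.69 on the halofuginone K6 array and failed at -4.38 on the control K5 array. The lowest levels above background on these arrays were -5.01 and -4.17, so its pass on the treated array alone does not show a rise. Without Atp6v1e2, 10 of 18 were higher in both lines and 2 at least 2-fold higher in K5.

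The V0 sector carries protons across the membrane. Atp6v0a4 encodes an isoform of its a subunit known from kidney and other acid-secreting epithelia. It read -4.30 in control K5, where it was not well above background, and -3.21 in control K6, against -2.86 and -1.30 after halofuginone. Both treated arrays thus lay above both controls. Atp6v0a4 rose by 1.67 on the log2 scale (SE 0.281, limma adjusted p = 0.0488), measured by 1 probe at chr6:37998491-37998550 on mm9. In K5 it was at least 2.48-fold higher, a bound set against the lowest signal above background of the control array, and in K6 3.75-fold higher. The test uses the value as read, not the bound.

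The other a subunit genes did not pass the test. Atp6v0a1 changed by 0.52 in K5 and 1.11 in K6, and Atp6v0a2 by 0.68 and 0.53. Tcirg1, which encodes the a3 isoform of lysosomes and osteoclasts and is not matched by the name rule, changed by -1.59 in K5 and -2.73 in K6 (SE 0.383 on the mean of -2.16, limma adjusted p = 0.0521). It was singled out after its values were seen. The isoform genes of this subunit thus lay on both sides of 0.

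Atp6v0b, a subunit of the rotating membrane ring, read 2.15 and 3.04 in control K5 and K6 and 3.42 and 4.86 after halofuginone, a change of 1.54 (SE 0.289, limma adjusted p = 0.0553) with both treated arrays above both controls. The ring gene Atp6v0c changed by 0.18 in K5 and 0.76 in K6. Atp6v0d1, which couples the ring to the central shaft, read 2.33 and 2.53 in the controls and 2.53 and 3.83 after halofuginone, a change of 0.20 in K5 and 1.29 in K6. Atp6v0e2, a small V0 subunit, went the other way. It read 0.72 in control K5 and 0.07 after halofuginone, and -2.82 in control K6 and -5.36 after halofuginone, where it was no longer well above background. It was therefore at least 4.57-fold lower in K6, against 1.56-fold lower in K5, and the fitted change of -1.59 did not pass the test (SE 0.542, limma adjusted p = 0.135).

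The V1 sector hydrolyses ATP and none of its 11 tested genes passed the test. The highest mean changes belonged to Atp6v1h, a regulatory subunit (0.93 in K5 and 1.56 in K6, limma adjusted p = 0.079), Atp6v1c1, which clamps the stalks (0.75 and 1.61), and Atp6v1d, in the central shaft (0.62 and 1.53). Atp6v1a, the catalytic subunit, read 2.50 and 2.97 in control K5 and K6 and 2.39 and 3.26 after halofuginone, a change of -0.11 in K5 and 0.29 in K6. Its partner Atp6v1b2 changed by -0.03 and 0.71. Atp6v1c2, the second C subunit gene, read -2.18 and -3.62 in the controls and -3.31 and -5.20 after halofuginone, not well above background in the last. It was 2.20-fold lower in K5 and at least 2.62-fold lower in K6, with a fitted change of -1.36 (SE 0.278, limma adjusted p = 0.0617). The 2 C subunit genes therefore lay on opposite sides of 0 in both lines, as the values show without a test of their difference.

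**Figure D4:**
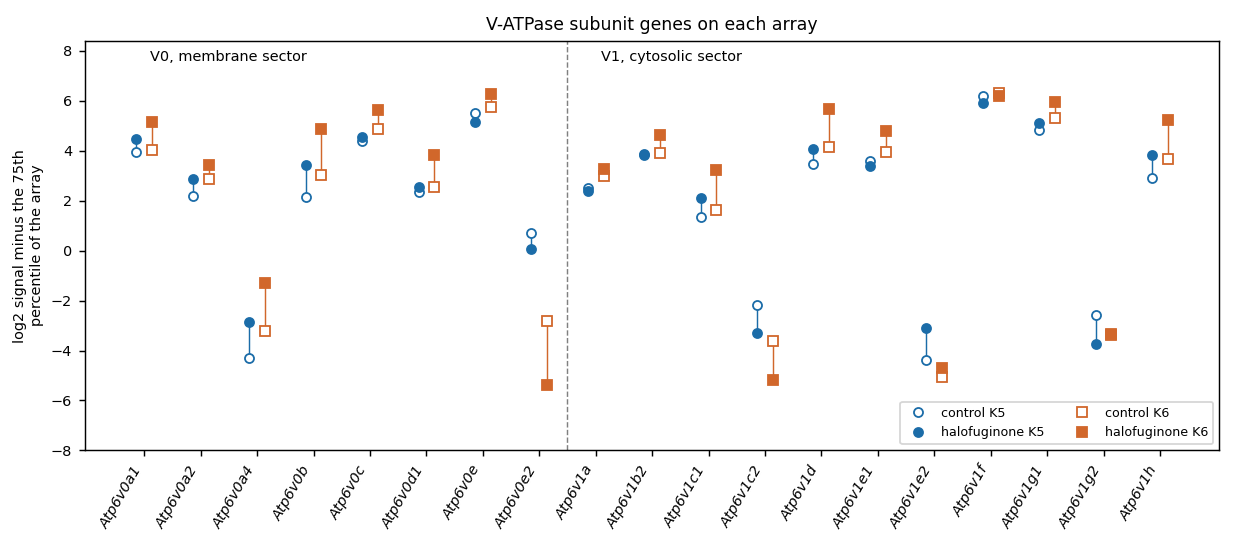
Levels of the 19 tested V-ATPase genes (vertical axis, log2 signal minus the array's 75th percentile) on each array, V0 genes left and V1 genes right of the dashed line, with marks as for the cathepsins. For Atp6v0b, Atp6v1h, Atp6v1c1 and Atp6v1d the filled mark lies above the open mark in both lines, by more in K6, and for Atp6v0e2 and Atp6v1c2 it lies below.

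Among the autophagy genes the median change was close to 0, and single steps of the pathway differed. Of 28 tested, 1 fell (Ulk2), none rose and 27 did not pass the test. In both lines 8 were higher (38.7% of all tested genes) and 14 lower (38%). At least 2-fold higher were 2 in K5 (14.1% of all) and 6 in K6 (16.4%), and at least 2-fold lower were 2 in K5 (14.9%) and 4 in K6 (16.4%).

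Ulk2, one of the kinases that start autophagosome formation, read 0.997 in control K5 and -0.16 in control K6, and -0.52 and -2.36 after halofuginone. Each treated array was lower than both controls. Ulk2 fell 3.61-fold, by 1.85 on the log2 scale (SE 0.307, limma adjusted p = 0.0485). The probe lies at chr11:61591022-61591081 on mm9, and a dimmer second probe gave -0.97. Ulk1, the related kinase, read 3.41 and 3.71 in the controls and 3.06 and 2.89 after halofuginone, a change of -0.59 (SE 0.282, limma adjusted p = 0.228). Their partners Atg13 and Atg101 changed by -0.15 and 1.12 on average. Becn1 and Atg14, of the lipid kinase complex, changed by -0.41 and -0.34 in K5 and by -0.62 and -0.40 in K6. Their treated arrays lay below both controls, and neither passed the test.

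In all, 6 genes act in lipid supply and membrane marking, and none passed the test. Atg9b, a lipid scramblase, read -0.28 and 0.84 in control K5 and K6 and -0.73 and -1.48 after halofuginone, a change of -0.45 in K5 and -2.32 in K6 (limma adjusted p = 0.164 for the mean). Its relative Atg9a was dim. It read -4.10 in control K5, not well above background, and -2.94 after halofuginone, against -2.29 and -3.07 in K6, so the lines moved in opposite directions. Atg2a and Atg2b, which transfer lipids to the growing membrane, changed by -0.63 and 0.81 on average, and Wipi1 and Wipi2, which bind the marked membrane, by -0.85 and 0.93. In both pairs the paralogs lay on opposite sides of 0 in each line.

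The conjugation system joins ATG12 to ATG5 and ATG8 proteins to lipid. None of its 7 genes passed the test, and 4 were higher and 3 lower in both lines. Atg3, the enzyme that hands ATG8 proteins to the lipid, read 1.80 and 2.66 in control K5 and K6 and 2.98 and 4.19 after halofuginone, a change of 1.35 (SE 0.27, limma adjusted p = 0.0595) with both treated arrays above both controls. Atg12 changed by 0.69 in K5 and 1.57 in K6. Atg7, the activating enzyme of both reactions, read 0.75 and 1.54 in the controls and 1.23 and 2.24 after halofuginone. Atg5, the acceptor of ATG12, read 0.48 and 1.82 in the controls and 0.20 and 1.16 after halofuginone. Atg7 was thus higher and Atg5 lower in both lines, each by less than 2-fold.

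The ATG8 genes themselves showed no common direction in K5 and were all higher in K6. Of these 5, Map1lc3a was higher in both lines (0.20 and 1.27), and the other 4 were lower in K5 and higher in K6. Of all 19093 tested genes, 2532 were lower in K5 and higher in K6. The K6 change exceeded the K5 change in 5 of 5 under the reported and every alternative processing. The filters, the variance model, the block and the common floor leave these values as they are, so they add no check. As reported, the K6 change exceeded the K5 change in 16 of the 28 autophagy genes and in 53.3% of all tested genes. The number lower in K5 and higher in K6 was 3 of 5 with quantile normalization, the authors' values, the mean over probes, or scaling on probes detected on all arrays. Map1lc3b, the LC3 gene most used as an autophagy marker, read 5.56 and 5.68 in control K5 and K6 and 5.09 and 5.99 after halofuginone. Gabarapl1 read 5.71 and 5.53 in the controls and 4.92 and 5.58 after halofuginone. Probes of Map1lc3b and Gabarapl2 disagreed in sign, from -0.18 to 0.10 and from -0.20 to 0.50. None of the 5 passed the test, and these arrays measure transcripts, not the lipid-bound form of the proteins.

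ATG4 proteases trim ATG8 proteins and release them from the membrane. Atg4a, Atg4c and Atg4d were lower in both lines and the brightest probe of Atg4b was not (-0.06 in K5 and 0.65 in K6). The 4 probes of Atg4b disagreed in sign, with mean changes from -0.28 to 0.82. Atg4a read -0.98 and -0.45 in control K5 and K6 and -1.94 and -2.35 after halofuginone, a change of -1.43 (SE 0.348, limma adjusted p = 0.0793). Atg4c changed by -0.64 and -1.45. The treated arrays of Atg4a, Atg4c and Atg4d lay below both controls, and none of the 4 passed the test.

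None of the lysosomal membrane and TFEB family genes passed the test. Lamp1 and Lamp2, the most abundant lysosomal membrane glycoproteins, were higher in both lines. Lamp1 read 6.33 and 7.07 in control K5 and K6 and 6.80 and 7.51 after halofuginone, and Lamp2 read 3.2 and 3.75 and then 3.69 and 4.43. Their changes were 0.46 and 0.49 in K5 and 0.44 and 0.68 in K6, and the 3 probes of Lamp2 ranged from -0.45 to 1.29. Mcoln1, the lysosomal calcium channel, read 3.63 and 4.01 in the controls and 3.23 and 4.03 after halofuginone. Tfeb read -0.62 and 0.19 in control K5 and K6 and -1.05 and -1.51 after halofuginone, a change of -0.43 in K5 and -1.71 in K6 (limma adjusted p = 0.162 for the mean), and its 4 probes ranged from -1.07 to -0.13. Tfe3 read 3.94 and 3.59 in the controls and 4.41 and 4.53 after halofuginone, a change of 0.71 (limma adjusted p = 0.172). The treated arrays of Tfeb lay below both controls and those of Tfe3 above.

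Members with the E-box core lay on both sides of 0. The 14 tested members with it had a median change of -0.19 in K5 and 0.40 in K6, with 6 higher and 4 lower in both lines. For the 35 tested members with a window and no core, the medians were -0.24 and 0.05, with 11 higher and 16 lower. The printed promoters show the same spread. Ctsf fell with 1 core in its window, and Ctsa was lower with 2, of which 1 lies in its printed stretch. Atp6v0b, Atg3 and Lamp1, with 2, 2 and 4, were higher. Of these changes only that of Ctsf passed the test.

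Other genes of the pathway were read from lists. Of 29 tested lysosomal hydrolases other than cathepsins, 4 fell (5.08% of all tested genes did) and none rose. These were Lipa, which cleaves cholesteryl esters (-3.24, limma adjusted p = 0.0389), Man2b1, a mannosidase (-2.86, 0.0407), Fuca1, a fucosidase (-2.14, 0.0392), and Glb1, the galactosidase that cathepsin A protects (-1.83, 0.0457). The list had medians of -0.39 in K5 and -0.73 in K6, and 17 of 29 were lower in both lines, against 38% of all tested genes. Of 20 tested genes of lysosomal membrane and transport none passed (limma, 2 higher and 2 lower at an unadjusted p under 0.05), with medians of -0.23 and -0.33.

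Of 10 V-ATPase accessory and assembly genes, 2 were past the threshold in the higher direction and 1 in the lower. Beside this count and those of the lists below, 3.88% of all tested genes rose and 5.08% fell. Tmem199, an assembly factor, rose by 1.58 (limma adjusted p = 0.0481). Dmxl2, a scaffold that brings V1 to V0, was above background on the halofuginone arrays alone and was tested only because of them. It was at least 1.30-fold higher after halofuginone, and its limma adjusted p of 0.0366 rests on control values below background. The one that fell, Rnaseh2c, encodes a subunit of ribonuclease H2 and was listed in error. Among 10 autophagy receptors Bnip3, a mitophagy receptor, fell by 2.96 (limma adjusted p = 0.0466). Sqstm1, which encodes p62, changed by 1.28 in K5 and 2.11 in K6 (limma adjusted p = 0.0578, not past the threshold, named after its values were seen). Of 13 fusion genes, Epg5, a tether of autophagosomes to late endosomes, rose by 2.63 (limma adjusted p = 0.0392) and Vamp7, a membrane fusion protein, fell by 2.06 (0.0457).

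None of 12 genes of the initiation and lipid kinase complexes passed (limma, 2 higher and 1 lower at an unadjusted p under 0.05). Nor did any of 10 cathepsin inhibitors and activators (limma, 1 higher and 1 lower at an unadjusted p under 0.05). In the list of TFEB regulation, 1 of 12 rose (3.88% of all tested genes did). This was Rragd, which encodes a Rag GTPase of nutrient sensing and changed by 2.28 (limma adjusted p = 0.039). No gene of that list was lower in both lines, and 9 were higher, against 38.7% of all tested genes. All 6 genes of the amino acid response read as a check (Atf4, Ddit3, Trib3, Asns, Chac1 and Sesn2) rose, with a median change of 3.23. Of all tested genes 3.88% rose.

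Between the lines, no member passed the test with treatment held (limma, 0.173% of all tested genes did), while 15 of 60 had an unadjusted p under 0.05, against 15.5% of all tested genes. K6 was higher in 44 members and lower in 16, where 47.8% of all tested genes were higher in K6. The difference was largest in Atp6v0e2, which was lower in K6 by a fitted -4.49 (SE 0.542, limma adjusted p = 0.0793), with 1 of the K6 arrays not above background. Next in size were Atp6v1c2 (-1.66), Ulk2 (-1.50), Atp6v0a4 (1.32), Ctsd (1.22), Ctsf (-1.20), Atp6v0b (1.17) and Atg5 (1.14), with adjusted p-values from 0.126 to 0.234. Lamp1 and Lamp2 were 0.73 and 0.65 higher in K6, and also missed the threshold. The number of members past it for this comparison was 0 as reported, 1 with median centring or a variance trend (Atp6v0e2 in both) and 8 with normexp background correction.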

How the data were processed

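RNA was amplified and Cy3-labelled, per the labels' protocols. The deposited intensity is the scanner's processed signal. Per the file headers, its background was subtracted, trends across the array were removed and dim spots got surrogate values in Agilent Feature Extraction 10.7.1.1 (9.5.1.1 per the submitters' processing notes). Other columns deposited with it flag spots that are above background, saturated or outliers. The authors also deposited a table of normalized intensity (column medians 33.0, the same sorted values in all 4 columns, step not given in the sources used here), which served as an alternative. Each of its columns correlated most closely with its own array.

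Control and outlier spots were left out (301 of 56605 probes were lost). Log2 values were centred on the array's 75th percentile, averaged per probe, and the brightest probe per gene name was kept. Of the 59305 spots per array, 47.2% were above background in control K5, 48.6% in control K6, 53.1% in halofuginone K5 and 54.0% in halofuginone K6. On every array 0 were saturated. After centring, the lowest level above background was -4.17 and -4.25 in control K5 and K6, and -4.92 and -5.01 after halofuginone. The levels of dim probes thus depend on treatment through the scaling, and its part in their changes was not tested. The number of arrays limits the precision. All 4 arrays lay on 1 slide. limma 3.58.1 in R 4.3.3 fitted line and treatment (1 residual and 2.97 prior degrees of freedom). The code was tried on simulated data with equal noise in every gene and no difference between the lines. These arrays are unlike that, so the trial says nothing on the calls reported here. The smallest permutation p for 2 against 2 samples is 0.333, so none was used. The numbers 5 and 6 name the same cells and so pair the samples. Across genes the K6 minus K5 difference under control correlated with that after halofuginone at r = 0.50.

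Bounds set the bright array against the higher of the lowest signal above background and the dim probe's own value. Coordinates are the files' (mm9), without exon annotation. All 66 probe accessions carried the same symbol in the RefSeq table. The members, lists, markers, tests and alternatives were chosen with earlier results of these data known. Named were members past the threshold, the 4 with the largest mean change and the 2 with the largest line difference per group, those with opposite changes of at least 2-fold in 1 line, and 16 well-known members. Where another is named beside its role group, it was chosen after its values were seen. Alternatives were the scaling, the background correction, the authors' table, the filter, the probe rule, the variance model and the block. The scaling on probes, on probes detected on all arrays, and a common floor were added after seeing the data.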

Additional observations from a re-analysis of the deposited data

Results flagged for a closer look

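In 2 members the lines moved in opposite directions, by at least 2-fold in 1 of them. Atg9a changed by 1.16 in K5, from a control not well above background, and by -0.78 in K6, a difference of -1.95. Atp6v1g2, a stalk subunit gene of V1, changed by -1.16 in K5 and by 0.05 in K6, a difference of 1.21. With 1 array per line and condition these differences were not tested.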

How the results depend on the processing

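Directions of the named members held under most alternatives, whereas the number past the threshold did not. The variance model and the block cannot alter a direction. Against 1 higher and 3 lower (4) as reported, median centring gave 2 and 5 (7), normexp 10 and 10 (20), the filter on all 4 arrays 7 and 7 (14), a variance trend 9 and 6 (15), the mean over probes 0 and 2 (2), quantile normalization and the authors' values each 0 and 3, and scaling on probes 2 and 3. No filter, scaling on probes detected on all 4 arrays, and a common floor each gave 0 (limma, with 20, 19 and 20 members at an unadjusted p under 0.05). Without the replicate block, which leaves the pairing out, it was also 0 (limma, 8 at an unadjusted p under 0.05). Between lines, 1 passed with median centring or a variance trend and 8 with normexp. Members at least 2-fold higher in K5 numbered 2, not 5, with normexp or the filter on all 4 arrays. Scaling on probes detected on all 4 arrays moved the median of all tested genes in K6 from 0.04 to -0.14. Atp6v1a turned to -0.0337 with quantile normalization, -0.0336 with the authors' values and -0.0311 with scaling on detected probes, Atg9a to -0.0392 with normexp, and Ctsd to 0.00621 with normexp and 0.0418 with scaling on probes. Leaving out a line leaves a value with no test, which ranged from -0.78 to 1.16 for Atg9a, -1.16 to 0.0545 for Atp6v1g2, -0.38 to 0.36 for Ctsd, -0.79 to 0.0497 for Gabarapl1, -0.47 to 0.31 for Map1lc3b, -0.40 to 0.0171 for Mcoln1 and -0.11 to 0.29 for Atp6v1a. The causes were not tested. Signal over background limits Atp6v0a4, Atg9a, Atp6v0e2 and Atp6v1c2, each with 1 array not above it, and Atp6v1e2, with 2.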
